A study of Drosophila melanogaster with 3 samples.

Results

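The peaks described here lay upstream of promoters whose annotated protein-coding start sites all run in one direction. They came from chromatin immunoprecipitation with sequencing (ChIP-seq) of Ets97D in *Drosophila melanogaster*. The flies were a transgenic line, labelled Delg-GFP, that stably expressed Ets97D with eGFP at its C terminus. Whole embryos of both sexes aged 0 to 24 h were pooled, and an antibody against GFP was used. There was 1 group of 3 biological replicates and no other genotype, treatment or age, so each value describes all cell types of the embryo together. Of the peaks in the authors' optimal set (regions that passed their test of reproducibility, IDR), 2085 (37.3%) were members. A member had its summit within 500 bp of annotated transcription start sites (TSSs) of protein-coding genes on 1 strand only, and at or upstream of the nearest of them. They made up 50.6% of all 4118 promoter peaks, those with a protein-coding start site within 500 bp. The other promoter peaks were 1612 at divergent promoters, with start sites of both strands in that range, and 421 downstream of the start site at one-direction promoters, while 1477 peaks lay farther away. The choice used positions and annotation, not signal.

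Ets97D, also called Delg, is related to GABP alpha (NRF-2) of mammals and binds DNA through an ETS domain, a fold that reads the core GGAA. GABP is known in mammals for promoters of mitochondrial and ribosomal genes. Promoters of broadly used fly genes often carry other short elements: the DRE (TATCGATA), read by DREF; Motif 1 (here GGTCACAC), read by M1BP; and an E-box (CAGCTG). Promoters of developmentally regulated genes more often carry a TATA box or an initiator.

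The sequences below show the range of letters found under the summits, from the strongest members to those with several elements. Each runs 5′ to 3′ on the strand of the gene, within 50 bp of the summit, and stops before the TSS. None overlaps an annotated exon. They were read from the Release 6 (dm6) assembly. Capitals mark CCGGAA (the ETS core word), TATCGATA, GGTCACAC and CGATA, the inner part of the DRE, each on either strand; on the other strand CCGGAA reads TTCCGG and CGATA reads TATCG. The 2 strongest, RpL23A (chr3L:1668713-1668813, minus strand) and CG6966 (chr3R:15095806-15095906, minus strand), hold none of these words. lace (chr2L:15498944-15499044, plus strand) and CG5805 (chr3R:24787422-24787498, minus strand) hold the ETS core word, beginning 120 and 64 bp upstream of the TSS. RpL27 (chr3R:25685052-25685124, minus strand) holds the ETS core word, at -60, and a DRE, at -40. RpS10b (chrX:19597934-19598030, plus strand) holds a DRE at -77. Rnp4F (chrX:5322697-5322767, minus strand) holds a DRE at -53 and Motif 1 at -36. Adsl (chr3R:17021126-17021226, minus strand) and CrebB (chrX:18370811-18370911, plus strand) hold Motif 1, at -15 and -104.
RpL23A: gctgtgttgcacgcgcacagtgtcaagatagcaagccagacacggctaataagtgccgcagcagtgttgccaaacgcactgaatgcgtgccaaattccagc
CG6966: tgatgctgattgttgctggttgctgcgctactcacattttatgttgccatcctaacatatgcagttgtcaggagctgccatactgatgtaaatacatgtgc
lace: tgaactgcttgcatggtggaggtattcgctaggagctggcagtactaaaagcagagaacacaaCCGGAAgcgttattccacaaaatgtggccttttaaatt
CG5805: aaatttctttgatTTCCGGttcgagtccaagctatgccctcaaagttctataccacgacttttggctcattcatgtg
RpL27: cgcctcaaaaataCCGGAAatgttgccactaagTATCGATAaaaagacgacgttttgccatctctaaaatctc
RpS10b: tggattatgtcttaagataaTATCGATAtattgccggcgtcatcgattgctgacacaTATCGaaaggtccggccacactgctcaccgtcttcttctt
Rnp4F: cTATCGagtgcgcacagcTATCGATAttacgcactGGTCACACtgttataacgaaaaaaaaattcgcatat
Adsl: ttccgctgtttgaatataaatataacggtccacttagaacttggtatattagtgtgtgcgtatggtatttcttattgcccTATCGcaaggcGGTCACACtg
CrebB: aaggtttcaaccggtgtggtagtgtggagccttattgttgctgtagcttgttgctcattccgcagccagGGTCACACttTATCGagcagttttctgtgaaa

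The summits gathered close to the start site. Their median position was 72 bp upstream of the nearest TSS, with quartiles of 167 and 36 bp, and 10 summits lay on the TSS itself. The most filled of 7 distance ranges was 51 to 100 bp, with 534 members (25.6%), and 69 lay 401 to 500 bp away. At divergent promoters the median position was -47 bp and the quartiles -90 and -13 bp. The span at divergent promoters is bounded by the start site on the other strand, so these positions were not compared by a test. A single start site lay within 500 bp in 1728 members (82.9%). For 296 members (14.2%) a protein-coding start site of the other strand lay within 1000 bp, and for 118 (5.66%) the start site of any kind of gene on the other strand lay within 500 bp. The label of one direction therefore holds for protein-coding starts within the range of the rule. At its edges, the 69 members 401 to 500 bp upstream had a median signal of 141 and 66 similar peaks 501 to 600 bp upstream had 155. The 107 members within 10 bp of the TSS had 163, and the 91 peaks 1 to 10 bp downstream had 155.

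**Figure D1:**
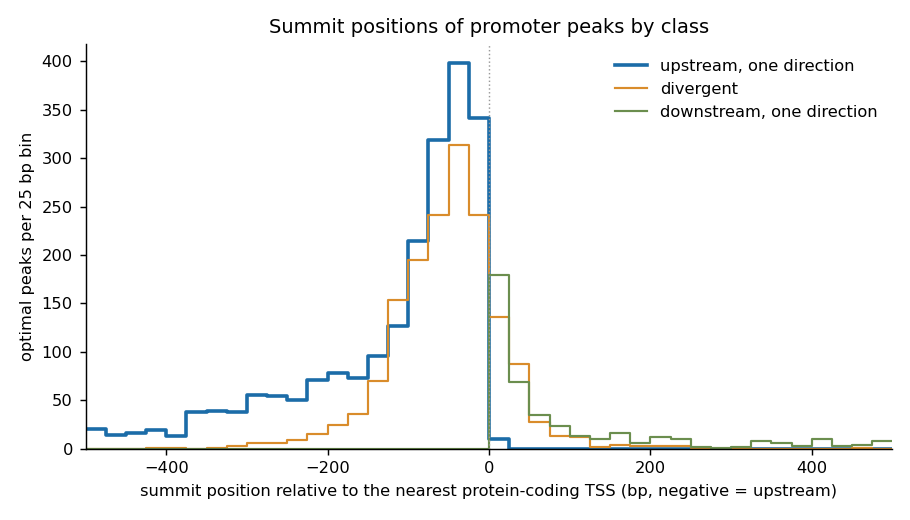
Number of optimal peaks per 25 bp bin (y axis) against the summit's position relative to the nearest protein-coding TSS (x axis, bp), for upstream members at one-direction promoters, divergent promoters and downstream peaks. The 2085 members end at the TSS by the rule and are densest within 100 bp of it.

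The members covered promoters of weak to very strong signal. The signal is the authors' value for ChIP against control, of unstated scale. Its median over members was 173, with quartiles of 123 and 265 and a highest value of 10751, and 58 members exceeded 1000. Divergent promoters had a median of 181, downstream peaks 137 and peaks away from promoters 133. Of the 100 strongest optimal peaks, 40 were members, against 33 at divergent promoters, 8 downstream and 19 elsewhere. These classes made up 37.3%, 28.8%, 7.52% and 26.4% of all optimal peaks, in the same order. The count of members was thus close to their share of the whole set, and the differences were not tested. No read counts were analysed, so the depth of the libraries is unknown. To set replicates side by side, a signal was divided by a median taken in the same replicate, over as many of its strongest regions as the optimal set has peaks (its strongest set).

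The strongest member lay at RpL23A, which encodes a protein of the large ribosomal subunit (optimal region 3L, 1668336 to 1669119, summit 109 bp upstream). Its relative signal was 69.0, 62.9 and 64.4 in replicates 1, 2 and 3. CG6966, on 3R at 15095485 to 15096212 with its summit at -225, had 61.5, 61.9 and 56.2. Their replicates did not overlap, and both stood apart from the next, RpL30, another large-subunit gene, with 42.4, 45.0 and 45.8. Alg3, a mannosyltransferase of N-glycan assembly, had 39.4, 39.6 and 36.8. Hsp83, the fly Hsp90, had 35.1, 36.4 and 37.6. lace, a subunit of serine palmitoyltransferase, the first enzyme of sphingolipid synthesis, had 37.9, 33.8 and 35.2. The replicates of Alg3, Hsp83 and lace overlapped one another, and all lay below every replicate of RpL30. Regnase-1, an RNase, had 35.8, 37.2 and 33.7. Nacalpha, part of the complex that meets nascent chains at the ribosome, had 33.9, 34.8 and 32.0, and yps, a Y-box protein that binds RNA, had 31.3, 34.5 and 31.0. These neighbours in the order were not separated by the spread between replicates.

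Of the 25 strongest members found in all replicates, 10 had a ribosomal protein gene as the nearest gene. Ip259 was an eleventh case, since RpS27A also had a start site within 500 bp. Their signals in the optimal set ran from 2583 at RpS4 to 10751 at RpL23A. The coefficient of variation of relative signal over replicates ranged between 0.717% at RpL22 and 11.7% at CG5805, with a median of 4.89%. Their summits moved by at most 20 bp between replicates. Translation was also present through eEF1gamma, with relative signals of 33.4, 32.3 and 30.0, eEF5, with 30.8, 28.8 and 28.2, and eEF1alpha1, with 17.6, 17.1 and 16.2. eEF1gamma and eEF1alpha1 belong to the elongation factor that brings tRNA to the ribosome, and eEF5 (eIF5A) helps peptide bond formation. Not all were of this kind: p53, the damage-response transcription factor, had 19.8, 18.1 and 19.3, and WASp, an activator of actin branching, had 21.4, 19.7 and 19.3. The peak at goe, which encodes a metalloprotease-like protein that acts in the germline, had 26.7, 27.6 and 25.5.

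**Figure D2:**
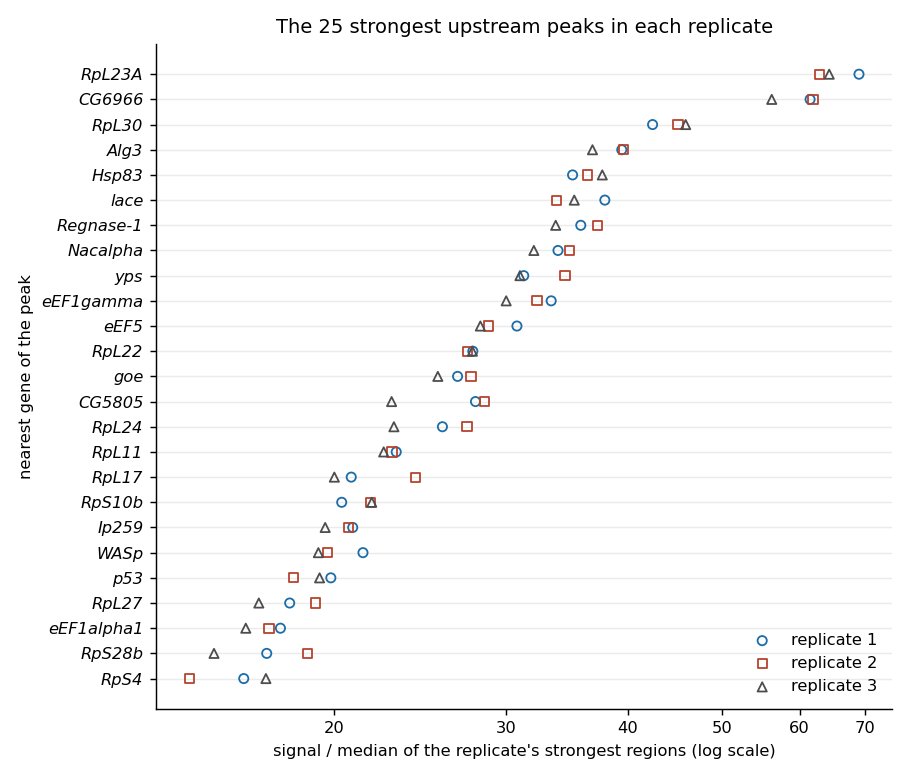
Relative signal (x axis, log scale, signal divided by the median of the replicate's strongest set) of the 25 strongest members found in all 3 replicates, each row a peak named by its nearest gene, each point a replicate. The replicates of a peak lie close together, and RpL23A and CG6966 lie to the right of all others.

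A member was nearest to 1912 of 13968 protein-coding genes (13.7%), which is the background for the gene groups that follow. These groups are described by their counts and intervals, without a test. Of 87 cytosolic ribosomal protein genes, 33 were the nearest gene of a member (37.9%, Wilson 95% interval 28.5 to 48.4). Their median signal was 1633, and 32 of them were found in all replicates' strongest sets. The strongest were RpL23A, RpL30, RpL22 and RpL24, with 10751, 7327, 4537 and 4141, and the weakest was RpS2, with 132. Nearly all ribosomal protein genes, 85 of 87, had some promoter peak, against 36.5% of all protein-coding genes. A divergent peak was nearest to 37 of them (background 11.3%) and a downstream one to 19 (background 2.94%). Of 54 translation factor genes, 14 were nearest to a member (25.9%, 16.1 to 38.9), with a median signal of 424. Promoter peaks of any class lay at 35 of the 54, and a divergent peak was nearest to 8 and a downstream one to 7. After eEF1gamma, eEF5 and eEF1alpha1 came eIF6, needed for the large ribosomal subunit, with relative signals of 4.41, 3.81 and 4.79.

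Genes of mitochondrial energy production had members of moderate signal. In the respiratory chain and ATP synthase list, 19 of 90 genes (21.1%, 14.0 to 30.6) were nearest to one, with a median signal of 164 and a range of 102 to 519. Promoter peaks of any class lay at 53 of the 90, against 36.5% of all protein-coding genes. A divergent peak was nearest to 21 (background 11.3%), so the higher share was not particular to members. ATPsynC, the subunit of the membrane ring, had relative signals of 3.51, 3.14 and 2.79, and blw, the alpha subunit, had 2.99, 2.97 and 3.21. RFeSP, the Rieske iron-sulfur protein of complex III, had 2.15, 2.29 and 2.11. Of 75 mitochondrial ribosome genes, 7 were nearest to a member (9.33%, 4.59 to 18.0), an interval that includes the background, and 20 were nearest to a divergent peak. Some promoter peak of any class lay at 57 of these 75 genes, against 36.5% of all protein-coding genes. mRpL41 had the strongest member of this list, with relative signals of 5.03, 4.83 and 5.25. It was followed by tko, a small-subunit protein, with 2.64, 2.70 and 3.08.

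Of the proteasome list, 9 of 43 genes were nearest to a member (20.9%, 11.4 to 35.2), and the strongest was Prosalpha3, with relative signals of 1.27, 1.03 and 1.55. For DNA replication it was 6 of 29 (20.7%, 9.85 to 38.4), led by PolA1, a DNA polymerase alpha subunit, with 2.32, 2.34 and 2.08, and by Orc1 of the origin recognition complex, with 1.86, 1.91 and 1.82. The intervals of both groups include the background for members. Some promoter peak of any class lay at 28 of the 43 proteasome genes and 22 of the 29 replication genes, against 36.5% of all protein-coding genes. For the CCT chaperonin the count was 2 of 8 genes (CCT2 and CCT5), and for the Sm and LSm proteins of the spliceosome 1 of 9 (LSm3). With promoter peaks of any class, these counts were 6 of 8 and 9 of 9. Genes of sensory neurons and cuticle had few. Of 179 odorant and gustatory receptor genes 0 were nearest to a member, and a count of 0 allows a share of up to 1.68% (3 counts of 179). The upper Wilson limit, the measure used for the other lists, was 2.10%. Of 117 cuticle genes 1 was, Cpr62Ba, with 0.766, 0.530 and 0.887. Of 30 patterning and Hox genes 3 were: cad, a homeobox factor of the posterior, with 2.44, 2.87 and 2.25; bcd, the anterior morphogen, with 1.24, 1.41 and 1.37; and wg, a Wnt ligand, with 0.668, 0.796 and 0.712. The summits of cad, bcd and wg lay 175 to 191 bp upstream, farther out than the median member.

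Of the panel, the DRE had the highest ratio of its share under the summit to that in windows beside it. TATCGATA lay within 50 bp of the summit in 212 members (10.2%, Wilson 95% interval 8.94 to 11.5), against 0.384% of 4170 windows of the same width centred 500 bp to either side. Windows centred 72 bp upstream of all 19276 protein-coding start sites held it in 4.0%. Its inner part CGATA, which every DRE contains, was found in 792 members (38.0%), 12.6% of the side windows and 24.3% of all promoters. GGTCACAC (Motif 1) was found in 161 members (7.72%, 6.65 to 8.95), 0.408% of the side windows and 1.88% of all promoters. CAGCTG was found in 196 (9.40%, 8.22 to 10.7), 4.94% of the side windows and 6.62% of all promoters. One of the side windows often lies within the transcribed gene, so its base composition differs from that of a promoter. The windows of all promoters reached 50 bp either side of their centre and so ended before the TSS, while members' windows followed the summits. Motif 1 was densest just past the TSS, so its share of all promoters was held down by design. The size of this effect was not tested.

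The ETS core word in its exact form CCGGAA was uncommon. The shorter core GGAA was not counted by itself, so its share is not known. CCGGAA was found in 74 members (3.55%, 2.84 to 4.43), 3.19% of the side windows and 2.25% of all promoters. Its interval includes the share of the side windows and lies above that of all promoters. The longer CCGGAAG was found in 16 members (0.767%, 0.473 to 1.24), 0.576% of the side windows and 0.291% of all promoters. Where CCGGAA occurred, 47.5% of its 80 copies had their centre within 20 bp of the summit, against 46.4% for TATAAA, 44.0% for CGATA and 38.8% for TATCGATA. At least 1 of CCGGAA, TATCGATA, GGTCACAC and CAGCTG was present in 578 members (27.7%), and none in 1507 (72.3%). The 9 members with both CCGGAA and TATCGATA had a median signal of 2184; Alg3, eEF1gamma, p53 and RpL27 were among them. By contrast the 15 with TATCGATA and GGTCACAC had 169, although Rnp4F, an RNA-binding protein of splicing, had relative signals of 5.22, 4.52 and 4.17.

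Of the other words, 3 were less frequent under the members than at promoters at large. TATAAA was found in 251 members (12.04%) and 19.1% of promoters, the GAGA word GAGAGAG in 1.68% and 4.21%, and CAGGTAG, read by the early embryonic activator Zelda, in 0.240% and 0.695%. Their shares in the side windows were 11.7%, 2.06% and 0.863%, so TATAAA was not lower than beside the summits. Divergent and downstream peaks also lay below the promoter shares of these words. All promoter windows lay at 1 distance from the TSS while members' windows followed the summits, and the part of this was not tested. TGACTCA, the AP-1 site, was found in 1.34% of members and 0.913% of promoters, and CACGTG, another E-box, in 1.49% and 1.07%. The 35 members with GAGAGAG had a median signal of 132, against 175 in the others, and 51.4% of them were found in all replicates, against 75.2%. In an unguided count of all 2080 words of 6 bases, the 3 with the widest gap to the side windows overlapped the DRE: TATCGA and ATCGAT lie within it, and CGATAG holds its CGATA with 1 further base. TATCGA was found in 26.1% of members against 4.0% of side windows, ATCGAT in 22.7% against 3.6% and CGATAG in 21.0% against 2.42%. The next, ACACTG, was found in 15.3% against 3.91%. Divergent peaks held these words about as often as members, in 26.2%, 21.7%, 20.8% and 13.7%, in the same order. Downstream peaks held them in 18.5%, 15.7%, 15.7% and 14.7%.

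The elements had their own places relative to the start site. Copies of the DRE had a median position of -45.5 bp, with quartiles of -66.8 and -23.2 bp. Copies of the E-box had a median of -34 bp and those of Motif 1 a median of -26.5 bp. GGTCACAC read along the gene's strand in 110 of 164 copies (67.1%, 59.6 to 73.8) and on the other strand in 54, while CGATA was even, with 791 and 762. The ETS core word had no narrow place: its copies had a median of -87 bp with quartiles of -196 and -32 bp, and 35 of 80 lay on the gene's strand. These positions also depend on where the summits lay, since words were sought around them.

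**Figure D3:**
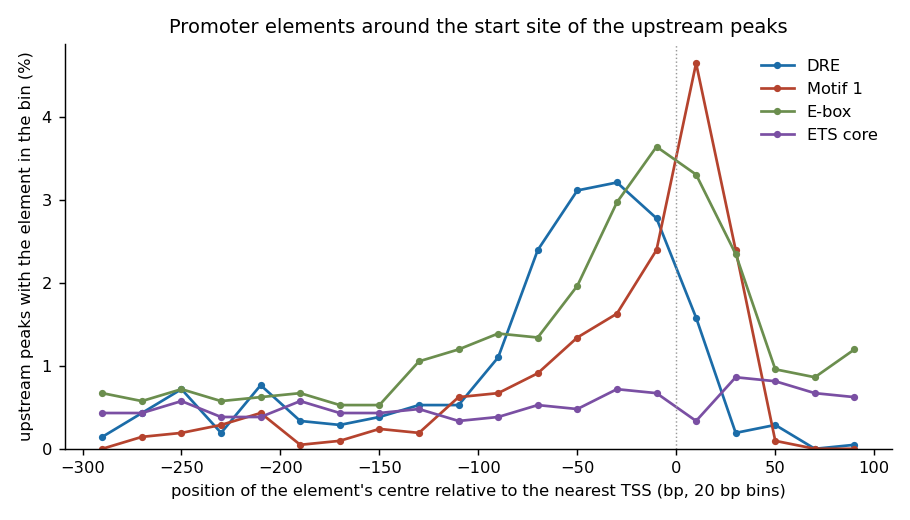
Share of the 2085 members (y axis, %) that hold each element in 20 bp bins (x axis, position of the element's centre relative to the nearest TSS, bp), whatever the summit's place. The DRE is highest between 60 and 20 bp upstream, Motif 1 just past the TSS, the E-box around the TSS, and the ETS core word stays below 1% in every bin.

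The words under the summit differed with its distance from the TSS, but the way they were sought limits this comparison. Windows reached 50 bp from the summit, so those of summits more than 100 bp upstream held no word within 50 bp of the TSS. Copies of the DRE and Motif 1 had median positions of -45.5 and -26.5 bp, so their shares farther out were held down by design. The size of this effect was not tested. In each replicate's own strongest set, the DRE was present in 14.5%, 14.3% and 14.2% of upstream regions with summits within 100 bp of the TSS, against 2.84%, 3.69% and 2.89% of those farther out. The mean difference was 11.2 points ± 0.551 (SD, n = 3). Motif 1 was present in 11.0%, 10.3% and 11.1% of the near regions and in 1.89%, 2.88% and 2.37% of the far ones, a difference of 8.41 points ± 0.886. The ETS core word differed little, with 3.74%, 3.26% and 3.60% near the TSS and 3.55%, 3.11% and 3.55% farther out. All replicates gave the same direction for each word. An exact two-sided sign permutation test over 3 replicates gave p = 0.25 for each, the smallest it can give, so this design cannot pass 0.05. The near and far groups also differed in base composition: median GC was 45.5% within 25 bp of the TSS and 35.6% at 101 to 300 bp, and the part of this in the word shares was not tested. Signal also varied with distance, though not evenly. Its median over members was 163 within 25 bp of the TSS, 182 at 26 to 50 bp, 190 at 51 to 100 bp, 191 at 101 to 200 bp, 163 at 201 to 300 bp and 141 at 401 to 500 bp. In regions within 200 bp of the TSS the median relative signal was 1.14, 1.11 and 1.13, against 0.940, 0.932 and 1.01 farther out, a difference of 0.169 ± 0.0410 (SD, n = 3; exact p = 0.25).

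Strong members held the ETS core word and CGATA more often than the rest did, while the full DRE differed less. Among the 25 strongest, CCGGAA was present in 8 (Alg3, lace, yps, eEF1gamma, goe, CG5805, p53 and RpL27) and TATCGATA in 5. In the strongest quintile of each replicate's upstream regions (1 of 5 equal groups by signal), CCGGAA was present in 7.90%, 6.54% and 7.40%, against 2.60%, 2.36% and 2.62% of the rest. The difference was 4.75 points ± 0.566 (SD, n = 3; exact p = 0.25, higher in 3 of 3 replicates). For TATCGATA the shares were 10.4%, 11.4% and 10.7% in the strongest quintile and 9.46%, 9.45% and 9.59% in the rest, a difference of 1.32 points ± 0.534. For CGATA they were 47.4%, 43.1% and 41.1% in the strongest quintile and 35.4%, 34.9% and 35.2% in the rest, a difference of 8.70 points ± 3.14, also in 3 of 3 replicates (exact p = 0.25). The differences were not tested against each other. Other promoter peaks with CCGGAA were stronger too. In the optimal set, median signal with and without it was 221 and 172 in members, 283 and 180 at divergent promoters, and 155 and 135 downstream. Of all words of 6 bases, CGATAG gained most in the strongest quintile of the optimal set's members, with 24.5% against 17.0% in the weakest, and TTAAAA lost most, with 17.0% against 25.9%. Both were picked as the extremes of 2080 words, without a test, so they add no support to the CGATA difference. ATGCAA gained nearly as much as CGATAG, with 11.8% against 4.80%. By quintiles of the optimal set's members from strongest to weakest, CCGGAA was found in 6.24%, 3.36%, 2.40%, 1.92% and 3.84%, so the trend was not even. TATCGATA was found in 9.83%, 10.1%, 10.3%, 9.59% and 11.0%, in the same order. Most of the strongest quintile lacked the word. Median GC under the summit was 43.6% in the strongest quintile and 39.6% in the weakest, and its part in the difference was not tested.

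Compared with the other promoter peaks, members were close to divergent promoters and stronger than downstream peaks. In each replicate's own strongest set the median relative signal of upstream regions was 1.08, 1.06 and 1.10, against 1.15, 1.13 and 1.13 at divergent promoters, a difference of -0.0515 ± 0.0215 (SD, n = 3). Downstream regions had 0.857, 0.839 and 0.846, which gives a difference of 0.235 ± 0.0168. Both had the same direction in all replicates, with exact p = 0.25, the smallest possible. With the 50% of regions of highest signal they were -0.00507 (exact p = 0.75) and 0.0745. The share of regions with the DRE was 9.64%, 9.84% and 9.82% upstream and 9.96%, 8.88% and 10.7% at divergent promoters. That difference, -0.0728 points ± 0.931, was smaller than the spread between replicates (exact p = 1). Against 5.84%, 7.11% and 5.30% downstream, the upstream share was higher by 3.68 points ± 0.902 (exact p = 0.25). The ETS core word was present in 3.66%, 3.20% and 3.58% of upstream regions, in 2.79%, 2.53% and 2.75% of divergent ones and in 7.19%, 5.86% and 6.11% of downstream ones. Upstream regions thus exceeded divergent ones by 0.788 points ± 0.103 and lay below downstream ones by 2.91 points ± 0.545, each in 3 of 3 replicates (exact p = 0.25). These were the 6 planned tests, and none can pass 0.05 with 3 replicates, before or after adjustment.

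**Figure D4:**
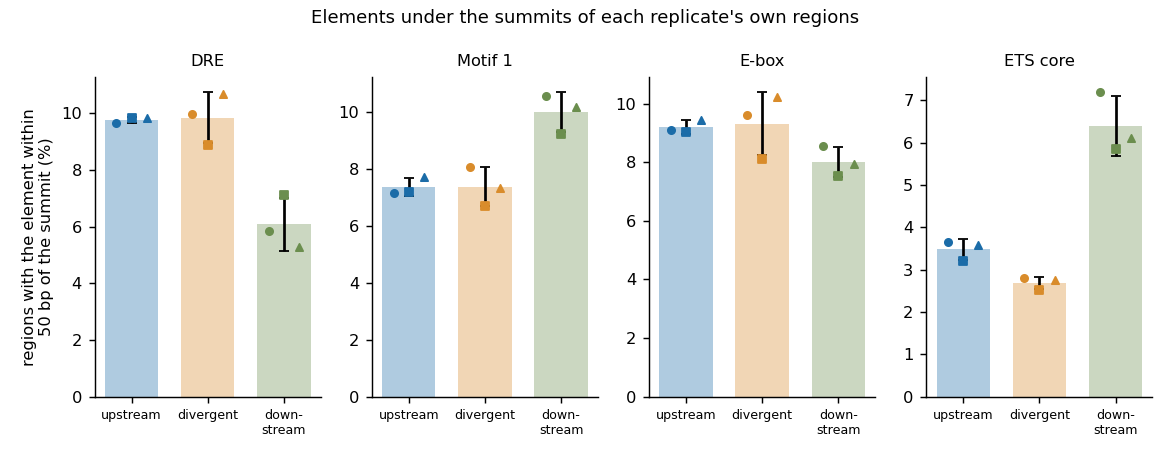
Share of regions (y axis, %) with each element within 50 bp of the summit in each replicate's own strongest set, for upstream regions, divergent promoters and downstream regions; bars are means, error bars SD (n = 3) and points replicates. The ETS core word is highest downstream, and the DRE is lower downstream than in the other classes.

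At the start site itself, an initiator core (TCAGT on the gene's strand within 20 bp of the TSS) was present at 241 members' promoters (11.6%, Wilson 95% interval 10.3 to 13.0), 5.96% of divergent ones and 18.0% of all protein-coding start sites. Downstream peaks at one-direction promoters had it in 11.4% (8.71 to 14.8), close to the members. Over replicates, the share was 11.6%, 11.2% and 12.3% for upstream regions and 6.32%, 5.29% and 5.96% for divergent ones, a difference of 5.84 points ± 0.561 (SD, n = 3; exact p = 0.25). TATAAA in the usual place of a TATA box, 40 to 16 bp upstream, was present at 37 members' promoters (1.77%, 1.29 to 2.44), 1.36% of divergent ones, 1.90% of downstream ones and 6.86% of all start sites. The pyrimidine word CTCTTT of ribosomal-type initiators was present at 1.15% of members' promoters and 1.17% of all start sites. It was present at 1.24% of divergent promoters and 2.14% of downstream ones (1.13 to 4.01).

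Most summits lay between genes. There were 1535 between protein-coding genes (73.6%), 163 inside another gene (7.82%) and 387 inside their own gene, upstream of an inner start site (18.6%). Between genes, the upstream neighbour was on the same strand for 1038 members and on the opposite strand for 494. With a neighbour on the same strand the median gap from the TSS was 397 bp, and with one on the opposite strand 1331 bp; the rule removes opposite neighbours that start within 500 bp. The DRE was present under 12.4% of the members with a same-strand neighbour, 10.7% of those with an opposite one and 4.65% of those at inner start sites, while the ETS core word was present in 3.08%, 4.25% and 3.62%. Rtnl1, which encodes a reticulon that shapes the endoplasmic reticulum, had 5 members, the most of any gene; it is named because of that count. Their signals were 531, 105, 101, 294 and 319 along chromosome arm 2L, and 3 of the 5 were found in all replicates. In all, 154 genes had more than 1 member, and 249 members (11.9%) overlapped another optimal region, so members were not independent of each other.

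The members were spread over the chromosome arms much as start sites are, apart from chromosome 4. It held 28 members (1.34%), against 0.295% of the other promoter peaks and 0.737% of protein-coding start sites. The share of the other peaks rests on very few regions, and this arm was singled out after values were seen. In the replicates' own sets, 1.43%, 1.31% and 1.12% of upstream regions lay there, against 0.335%, 0.459% and 0.248% of the other promoter regions, a difference of 0.942 points ± 0.137 (SD, n = 3; exact p = 0.25). Its strongest member was at RpS3A, a small-subunit ribosomal protein gene (4, 66942 to 67604), with relative signals of 15.0, 14.0 and 13.8. Chromosome X held 368 members (17.6%), against 16.2% of the other promoter peaks, with RpL22 strongest at 27.7, 27.4 and 27.7.

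Most members were found in all replicates. In 1560 (74.8%, Wilson 95% interval 72.9 to 76.6) the strongest sets of all 3 replicates had a summit within 150 bp; 351 were found in 2 replicates, 166 in 1 and 8 in none. The share was 78.0% (76.0 to 80.0) at divergent promoters and 59.6% (54.9 to 64.2) downstream. By quintiles of signal it was 99.3%, 99.3%, 94.7%, 66.2% and 14.6% from strongest to weakest. Limiting each replicate to its strongest set makes weak members drop out, so this trend follows in part from the way the sets were made; in the full lists, 96.4% of members were found in all replicates. The optimal set was made from the same 3 replicates, so this is no independent check. Across members, Spearman's rho of relative signal was 0.797 between replicates 1 and 2 (2029 members), 0.817 between 1 and 3 and 0.776 between 2 and 3 (2037 each). These coefficients are across peaks of shared libraries and carry no p-value. The median coefficient of variation was 17.3%, and the median range of the summit over replicates was 38 bp, against 45 bp at divergent promoters.

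**Figure D5:**
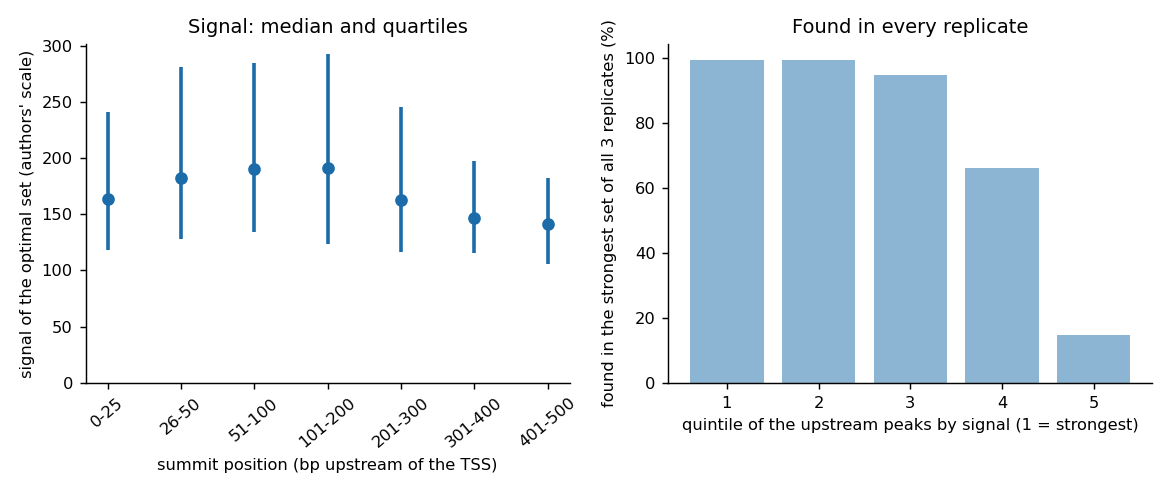
Left, signal of the members in the optimal set (authors' scale; points medians, lines quartiles) by distance of the summit from the TSS (bp upstream). Right, share of members found in the strongest sets of all 3 replicates (%) by quintiles of signal: 99.3% in the strongest quintile and 14.6% in the weakest.

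The Ets97D gene itself had 2 members, which overlapped. The stronger (3R, 26912699 to 26913148, summit 38 bp upstream of the TSS) had a signal of 303 and relative signals of 1.79, 2.00 and 1.87. The weaker, with its summit 237 bp upstream, had a signal of 90.8, was found at 0.820 and 0.444 in replicates 2 and 3, and had no summit within 150 bp in replicate 1. Neither held CCGGAA or TATCGATA within 50 bp of its summit. The transgene carries sequence of this gene, and its part in the signal there was not tested.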

How the data were processed

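ChIP-seq for Ets97D-eGFP was done on whole embryos in 3 biological replicates, per the labels. Deposited narrowPeak lists on dm6 were used: a list of peaks and background for each replicate and the authors' optimal set. The signal was deposited by the authors as a value per region against a control. The −log10 q value was deposited by the authors too and was read only to check the lists. For the aligner, the peak caller, the IDR threshold and duplicate removal, nothing is stated (not given in the sources used here). Depth is unknown because the lists carry no counts of reads, and intervals cover counting of regions only.

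Summits were start plus offset. Start sites came from the Ensembl release 115 annotation of Release 6; region and gene ends on 7 chromosome arms lay within the NCBI sequence. Words on either strand were counted within 50 bp of a summit, in 2 windows centred 500 bp away, and at start sites. As many regions of highest signal as the optimal set has peaks (the strongest set) were taken from each replicate and classified by the same rule. Shares have Wilson 95% intervals. Class differences within replicates were tested by an exact two-sided sign permutation test. The procedures were tested on simulated data. Alternatives were other promoter zones, start sites of all genes, stricter regions, other matching distances and word windows, full lists, and leaving out each replicate. Named genes were the 25 strongest members found in all replicates, the 5 strongest with each of CCGGAA, TATCGATA and GGTCACAC, the strongest on each arm, up to 4 per gene list, and Ets97D. The members, the 11 gene lists and the words were chosen with earlier results of these data known; splits by signal and distance within replicates, and the values per replicate for chromosome 4 and the initiator, were added after values were seen. Software was SciPy 1.17.1, statsmodels 0.14.6, pandas 2.3.3, NumPy 2.4.6 and matplotlib 3.10.9 under Python 3.11.15.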

Additional observations from a re-analysis of the deposited data

How the results depend on the processing

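Of 67 alternatives, 54 left a result on the same side. The count of 2085 members was 1145 with the 50% of regions of highest signal, which leaves fewer regions. The share of members found in all replicates, 74.8%, was 75.8% with a promoter zone of 250 bp, 74.2% with 1000 bp, 72.2% with the stricter regions, 67.3% with summits within 75 bp, 79.3% within 300 bp, 96.4% with the replicates' full lists, and 80.0% to 80.7% without each replicate, where fewer lists have to agree. The difference in DRE share between members and divergent promoters, -0.0728 points, turned to 1.06 points with a zone of 250 bp and ran from -0.588 to 0.317 points without each replicate; the cause was not tested. The share of each replicate's own regions that lay upstream averaged 36.0% and ran from 35.6% to 36.5% without each replicate. The count of members without a replicate was not run, since the optimal set was made by the authors from all replicates. The mean differences of the other 5 planned tests kept their sign in every alternative run, but their sizes moved. With the stricter regions, the signal difference was -0.00507 against divergent promoters (exact p = 0.75, so the replicates no longer shared a direction) and 0.0745 against downstream regions. With a zone of 250 bp, the signal difference against divergent promoters was -0.113 and the ETS core word difference 1.79 points. With the ETS core word sought within 25 bp, that difference was 0.293 points. Against downstream regions, the DRE difference was 1.66 points within 25 bp and 1.80 within 100 bp, and the ETS core word difference was -4.70 points within 100 bp and -1.78 with a zone of 1000 bp. Classes were compared within each replicate throughout; no paired analysis between groups was possible because there is 1 group. The unknown depth limits all statements on weak members.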
